A study of Homo sapiens with 8 samples.

Results

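The 33 enzymes described here make sterols or fatty acids, and their RNA was measured in DLD1 cells, an established human colorectal cancer cell line, after depletion of UHRF1, treatment with the histone deacetylase (HDAC) inhibitor trichostatin A (TSA), both or neither. The members were taken by gene name from the non-control probes of 8 single-colour arrays, which gave 48 of the 50599 probes and 33 of the 36337 gene names. Of the members, 18 form the sterol arm and 15 the fatty acid arm. Cells received a control siRNA (siCONT) or siUHRF1-1 or siUHRF1-2 against UHRF1 for 48 h, and then mock treatment with ethanol or 300 nM TSA for 24 h. Each siRNA arm (siCONT or UHRF1) was thus studied with mock and with TSA, in 4 groups of 2 arrays. The 2 arrays of a UHRF1 depletion group carried the 2 siRNAs, 1 each. The knockdown was transient and in a pool of transfected cells, and the labels do not state whether arrays came from separate cultures, so p-values measure the spread between these samples, which may be technical. The SD of the log2 difference between the 2 arrays of a siCONT group was 0.16, close to the 0.126 to 0.157 between repeated spots within an array, so they may be 1 sample measured again. Each SE, adjusted p and call below nevertheless comes from a fit in which the 8 arrays count separately, and the counts with the siCONT arrays averaged to 1 sample are given beside it. All arrays were on 1 slide, with the mock arrays in row 1 and the TSA arrays in row 2, so TSA and slide row cannot be told apart.

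Cholesterol and fatty acids are both built from acetyl-CoA. In the sterol arm, acetyl-CoA units are joined into mevalonate, isoprenoids and squalene, and squalene is then closed into the sterol ring and trimmed to cholesterol. In the fatty acid arm, acetyl-CoA is carboxylated to malonyl-CoA, which fatty acid synthase assembles into palmitate for elongation, desaturation and transfer to glycerol. The SREBP transcription factors are known to drive both arms, SREBP-2 with a preference for sterol genes and SREBP-1 for fatty acid genes, and they are known to act with NF-Y, which binds the CCAAT box.

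Promoters of 29 members, from 250 bases before to 50 bases after a transcription start, were found in a RefSeq table (GRCh38.p14). ACAT2, FDFT1, SQLE and FASN were not among them. The CCAAT box (CCAAT on either strand) was in 13 of the 21 promoters of the sterol arm, in 11 of the 22 of the fatty acid arm, and in 34.6% of the 35116 promoters of the table. At least 2 such matches were in 10 promoters of the sterol arm and in 6 of the fatty acid arm, against 10.8% of all promoters. The GC box (GGGCGG on either strand) was in 17 promoters of each arm and in 45.0% of all. The sterol regulatory element of the LDL receptor type (exact match to TCACNCCAC on either strand) was in none of the member promoters. It was in 1.13% of all promoters. Other forms of the element were not searched. At so low a share, absence from 43 member promoters does not show that they lack the element. A gene may have several promoters in the table, overlapping matches were each counted, and a match is a description of letters and not a binding site. The CCAAT box was absent from the promoters of CYP51A1, LBR, PMVK, AACS, ELOVL6, FADS1, LPIN1 and ME1. Of these, CYP51A1 and LPIN1 fell with TSA in siCONT cells, and FADS1 rose. The stretches below are shown because the first 13 genes carry the box and fell with TSA in siCONT cells. Each is 29 bases of the gene strand, 5′ to 3′, around the nearest CCAAT box whose flanks end before the start, with the box in capitals (ATTGG where it lies inverted) and its first base the given number of bases upstream. The 10 sterol genes come first.
HMGCS1 (chr5:43313496-43313524, − strand, 100 bases upstream): ctaccggccgcgATTGGctgtgggagcca
MVK (chr12:109573736-109573764, + strand, 46 bases upstream): tcgcgcgctctgATTGGctggcctgaagt
MVD (chr16:88663160-88663188, − strand, 85 bases upstream): ggctcgcacgggCCAATcctgtggtagcg
IDI1 (chr10:1048957-1048985, − strand, 87 bases upstream): ctggcgcgagcgATTGGctgcgcggcccg
FDPS (chr1:155308803-155308831, + strand, 51 bases upstream): tcccgcgggcacATTGGgagttgtagtct
LSS (chr21:46228908-46228936, − strand, 150 bases upstream): cgcggcgctctgATTGGttgcgtgggcgt
NSDHL (chrX:152830967-152830995, + strand, 84 bases upstream): cgccgagctgggCCAATcctcttggtgga
HSD17B7 (chr1:162790638-162790666, + strand, 52 bases upstream): tggcggactgagATTGGagggatcagctc
EBP (chrX:48521766-48521794, + strand, 30 bases upstream): cttcgcttcaccATTGGctcgctccgtaa
DHCR7 (chr11:71448425-71448453, − strand, 48 bases upstream): ggtccgcctccgATTGGcaggcaatcgct
ACSS2 (chr20:34874854-34874882, + strand, 123 bases upstream): gccctccttgggATTGGgcagactctcgg
ACACA (chr17:37299887-37299915, − strand, 136 bases upstream): ttatttgttttgATTGGatctcagaaatt
SCD (chr10:100347035-100347063, + strand, 186 bases upstream): aattcccttcggCCAATgacgagccggag
ACLY (chr17:41919029-41919057, − strand, 23 bases upstream): gaacgcgtgtggCCAATcgcggggccgtt
TM7SF2 (chr11:65111786-65111814, + strand, 74 bases upstream): ccccgagcgccgATTGGctggtgtgctgg
ACACB (chr12:109154455-109154483, + strand, 212 bases upstream): ggggtgtcccatATTGGggagcaaagcag
ACSL3 (chr2:222860949-222860977, + strand, 75 bases upstream): accgctcgcgggCCAATgggtggcagcct
The last 4, ACLY, TM7SF2, ACACB and ACSL3, are shown because they carry the box and were called in no comparison. GGPS1 and FADS2, also called in no comparison, carry the box and are not shown. The same holds for GPAM and the untested ELOVL5, which carry it too.

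The level of a gene is the log2 intensity of its brightest probe minus that array's 75th percentile, so levels of different genes are not comparable. A change is a difference of such levels, given with its standard error (SE) from a limma fit across all probes. A change was called if it was at least 2-fold with an adjusted p (Benjamini-Hochberg) under 0.05, and "rose" and "fell" are used of called changes. UHRF1 itself had levels of 1.98 and 2.01 in siCONT with mock, 0.34 and −0.02 with siUHRF1-1 and siUHRF1-2 under mock, 1.04 and 1.01 in siCONT with TSA, and −1.55 and −2.14 with the siRNAs under TSA. It fell by 1.83 ± 0.22 (adjusted p = 0.012) under mock and by 2.87 ± 0.22 (adjusted p = 0.0023) under TSA. Neither was called with the siCONT arrays averaged (adjusted p = 0.252 under mock and 0.053 under TSA). An array measured 43.3% to 48.0% of its probes above background. All 10 epithelial markers were above background on all arrays, as were 1 of 4 leukocyte markers (CD14), 0 of 4 fibroblast markers and 0 of 3 endothelial markers. PTPRC and CD3E of leukocytes, COL1A2 and COL3A1 of fibroblasts and PECAM1 of endothelium were above background on none. Of the members, 32 were well above background on all 8 arrays. ELOVL5, a fatty acid elongase, had 2 probes that no array measured well above background, and was not tested.

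Most of the sterol arm fell with TSA in siCONT cells. Of the 18 sterol genes, 14 fell, none rose and 4 were not called, where 8.22% of all tested probes fell and 10.4% rose, or 18.6% together. The median change of the arm was −1.64 on the log2 scale, against −0.11 over all tested probes. The fall ran through the whole route, with 5 of 6 genes between acetyl-CoA and isopentenyl diphosphate, 3 of 4 between isoprenoid chains and squalene epoxide, and 6 of 8 from ring closure to cholesterol. In a bulk culture a lower level in every cell and a loss in a part of the cells cannot be told apart. With the siCONT arrays of an agent averaged to 1 sample, 3 sterol genes (MVK, SQLE and DHCR7) and no fatty acid gene were called, where 1.58% of all tested probes were.

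**Figure D1:**
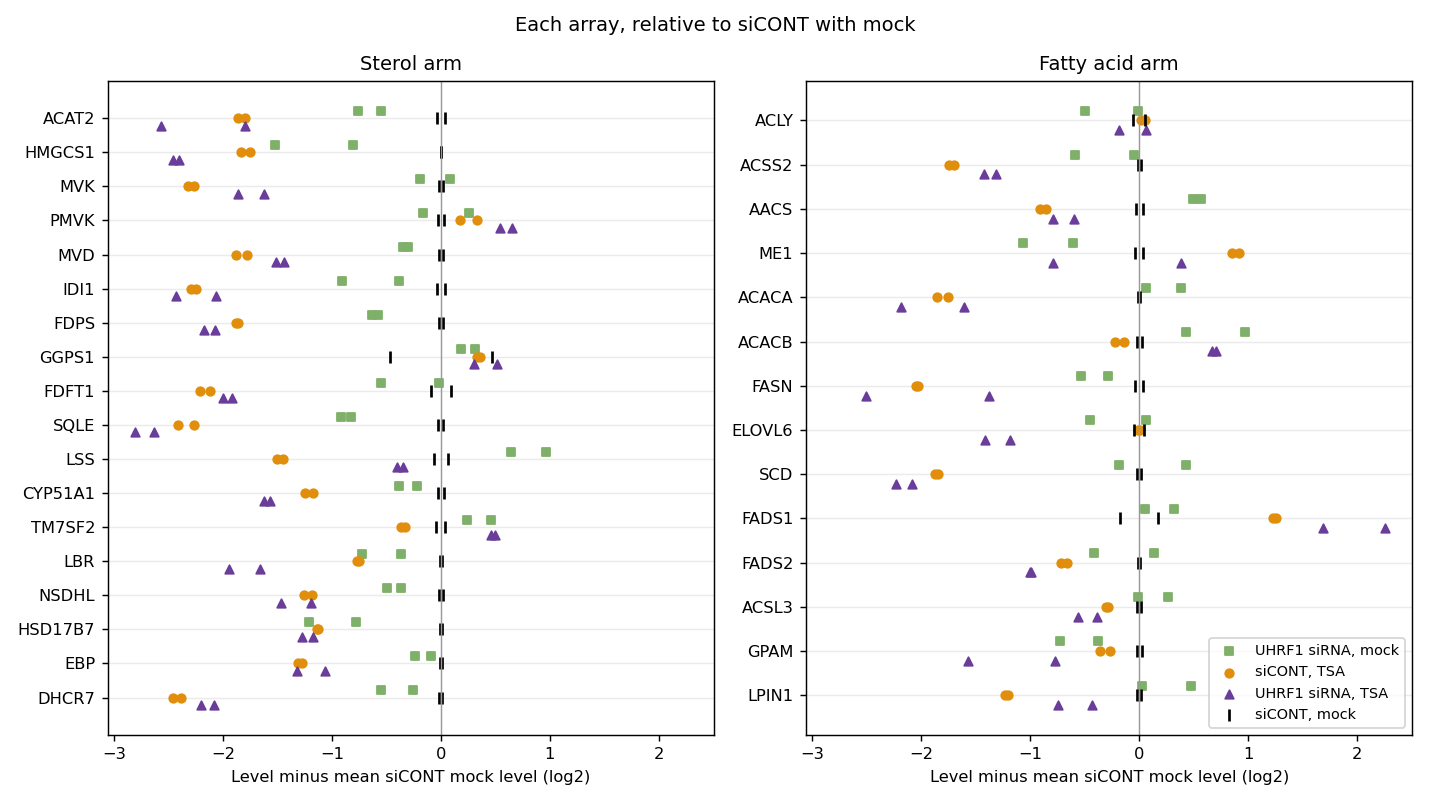
Level on each array minus the mean level of the 2 siCONT mock arrays (log2, x axis) for the 18 sterol genes (left) and the 14 measured fatty acid genes (right), with 1 mark per array. The siCONT TSA arrays (circles) lie left of 0 for 16 of the 18 sterol genes, while in the fatty acid arm FADS1 and ME1 lie to the right.

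DHCR7, SQLE and MVK had the largest changes of the sterol arm, within 1 SE of each other. DHCR7, which makes cholesterol in the last step of its branch (probe at chr11:71145514-71145573, hg19), had levels of 5.90 and 5.88 in siCONT with mock and 3.505 and 3.43 in siCONT with TSA, and 5.34 and 5.63 against 3.69 and 3.80 with siUHRF1-1 and siUHRF1-2. All TSA arrays of DHCR7 lay below all mock arrays, and the change in siCONT was −2.42 ± 0.14 (adjusted p = 0.000322). SQLE, which oxidizes squalene and is a rate-limiting enzyme of the route, had levels of 3.79 and 3.74 with mock and 1.499 and 1.35 with TSA in siCONT, and of 2.85 and 2.94 with mock and 0.96 and 1.14 with TSA under the UHRF1 siRNAs. SQLE fell 5.07-fold (adjusted p = 0.000305), and its UHRF1-depleted arrays lay below the siCONT arrays under each agent. MVK, the mevalonate kinase (probe at chr12:110034941-110035000, hg19), had levels of 4.58 and 4.55 with mock and 2.297 and 2.24 with TSA in siCONT, and of 4.38 and 4.65 against 2.94 and 2.70 under the UHRF1 siRNAs. MVK fell 4.91-fold in siCONT, and its TSA arrays lay lower in siCONT than in UHRF1-depleted cells.

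IDI1, which isomerizes isopentenyl diphosphate, had levels of 3.16 and 3.09 with mock and 0.87 and 0.83 with TSA in siCONT, and of 2.74 and 2.22 against 1.06 and 0.70 under the UHRF1 siRNAs. FDFT1, the squalene synthase, had levels of 5.72 and 5.90 with mock and 3.59 and 3.68 with TSA in siCONT, and of 5.79 and 5.26 against 3.81 and 3.89 under the UHRF1 siRNAs. The TSA arrays of IDI1 and FDFT1 did not overlap the mock arrays, with changes of −2.28 ± 0.21 and −2.17 ± 0.19 in siCONT. FDPS, the farnesyl diphosphate synthase, had levels of 6.66 and 6.70 with mock and 4.80 and 4.81 with TSA in siCONT, and of 6.10 and 6.04 against 4.60 and 4.51 under the UHRF1 siRNAs. MVD, which decarboxylates mevalonate diphosphate, had levels of 1.65 and 1.61 with mock and −0.25 and −0.15 with TSA in siCONT, and of 1.28 and 1.33 against 0.19 and 0.12 under the UHRF1 siRNAs. FDPS fell 3.67-fold and MVD 3.56-fold in siCONT. The order of the groups differed between FDPS and MVD, since the lowest arrays were UHRF1 depletion with TSA for FDPS and siCONT with TSA for MVD.

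ACAT2, the thiolase that joins acetyl-CoA units, had levels of 5.78 and 5.86 with mock and 4.02 and 3.96 with TSA in siCONT, and of 5.27 and 5.05 against 4.03 and 3.25 under the UHRF1 siRNAs. HMGCS1, which makes HMG-CoA, had levels of 4.11 and 4.11 with mock and 2.27 and 2.35 with TSA in siCONT, and of 3.30 and 2.59 against 1.65 and 1.70 under the UHRF1 siRNAs. ACAT2 fell by 1.83 ± 0.25 and HMGCS1 by 1.80 ± 0.23 in siCONT. Between the 2 siRNAs against UHRF1 the SD was 0.55 for ACAT2 under TSA and 0.50 for HMGCS1 under mock. LSS, which closes the ring of squalene epoxide into lanosterol, had levels of 3.34 and 3.46 with mock and 1.89 and 1.95 with TSA in siCONT, and of 4.04 and 4.37 against 3.001 and 3.05 under the UHRF1 siRNAs. LSS fell 2.79-fold with TSA in siCONT, and its UHRF1-depleted arrays lay above the siCONT arrays under each agent.

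By their brightest probes, the other called members of ring processing fell by less in siCONT cells. EBP, a sterol isomerase, had levels of 5.82 and 5.80 with mock and 4.53 and 4.50 with TSA in siCONT, and of 5.58 and 5.72 against 4.75 and 4.49 under the UHRF1 siRNAs. NSDHL, a sterol dehydrogenase, had levels of 4.69 and 4.73 with mock and 3.53 and 3.45 with TSA in siCONT, and of 4.21 and 4.34 against 3.51 and 3.24 under the UHRF1 siRNAs. CYP51A1, which removes a methyl group from lanosterol, had levels of 4.16 and 4.21 with mock and 3.01 and 2.94 with TSA in siCONT, and of 3.80 and 3.96 against 2.56 and 2.61 under the UHRF1 siRNAs. EBP, NSDHL and CYP51A1 fell 2.45-, 2.33- and 2.31-fold in siCONT. HSD17B7, a sterol ketone reductase, had levels of 1.23 and 1.25 with mock and 0.11 and 0.10 with TSA in siCONT, and of 0.46 and 0.03 against 0.07 and −0.04 under the UHRF1 siRNAs. Only the siCONT mock arrays of HSD17B7 stood high, and it fell 2.19-fold with TSA in siCONT. HSD17B7 has a near-identical pseudogene copy, so its probes may share signal with it.

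The other 4 sterol genes were not called with TSA in siCONT. PMVK, the phosphomevalonate kinase between MVK and MVD in the route, changed by 0.25 ± 0.17 (adjusted p = 0.268). GGPS1, which leads to geranylgeranyl diphosphate and away from sterols, changed by 0.35 ± 0.30, and its siCONT mock arrays, at −2.86 and −1.91, were farther apart than those of any other tested member. TM7SF2 and LBR, which both carry the sterol C14 reductase activity, changed by −0.35 ± 0.12 (adjusted p = 0.0684) and −0.76 ± 0.17 (adjusted p = 0.0147).

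The fatty acid arm was divided under TSA. In siCONT cells 5 of its 14 tested genes fell, 1 rose and 8 were not called, with a median change of −0.50. The genes that fell were FASN, SCD, ACACA, ACSS2 and LPIN1, and FADS1 rose. The medians of the sterol and fatty acid arms stayed below 0 under the 4 other scalings and background corrections, between −1.38 and −1.69 for the sterol arm and between −0.37 and −0.55 for the fatty acid arm. The difference between the arms was not tested, since genes are not replicates.

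**Figure D2:**
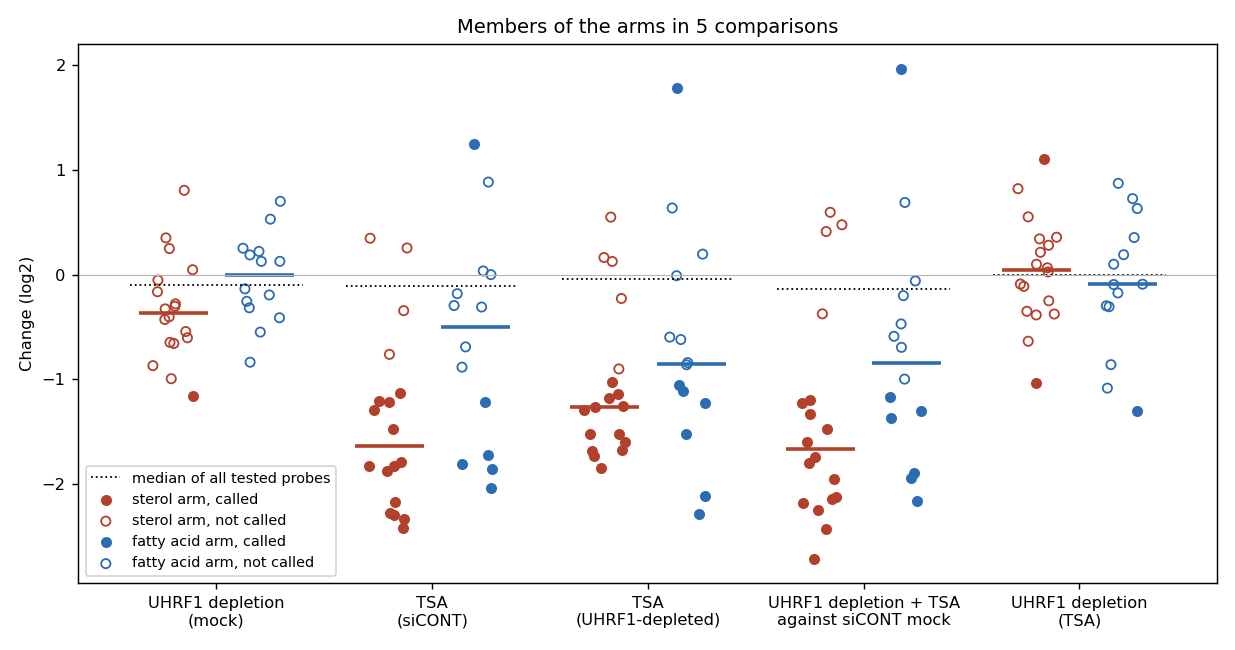
Change of each member (log2, y axis) in 5 comparisons (x axis), sterol arm in red and fatty acid arm in blue, filled where called, with the median of the arm as a bar and that of all tested probes as a dotted line. With TSA in siCONT the medians were −1.64 for the sterol arm and −0.50 for the fatty acid arm. With UHRF1 depletion under TSA they were 0.04 and −0.09.

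FASN, the fatty acid synthase (probe at chr17:80036216-80036275, hg19), had levels of 5.89 and 5.82 with mock and 3.81 and 3.82 with TSA in siCONT, and of 5.32 and 5.57 against 3.35 and 4.48 under the UHRF1 siRNAs. FASN fell 4.11-fold in siCONT (adjusted p = 0.00653), with all TSA arrays below all mock arrays, and with an SD of 0.80 between the siRNAs under TSA (n = 2). SCD, the desaturase that makes oleate, had levels of 2.81 and 2.78 with mock and 0.94 and 0.92 with TSA in siCONT, and of 3.23 and 2.61 against 0.71 and 0.56 under the UHRF1 siRNAs. ACACA, the cytosolic acetyl-CoA carboxylase that supplies malonyl-CoA to FASN, had levels of 4.85 and 4.87 with mock and 3.002 and 3.11 with TSA in siCONT, and of 4.92 and 5.25 against 2.68 and 3.25 under the UHRF1 siRNAs. SCD fell 3.63-fold and ACACA 3.5-fold in siCONT. The mitochondrial counterpart ACACB changed by −0.18 ± 0.19 (adjusted p = 0.465). ACSS2, which makes acetyl-CoA from acetate, had levels of 3.35 and 3.32 with mock and 1.59 and 1.63 with TSA in siCONT, and of 3.29 and 2.74 against 1.91 and 2.02 under the UHRF1 siRNAs. ACSS2 fell 3.30-fold, while ACLY, the other source of cytosolic acetyl-CoA in the list, changed by 0.03 ± 0.19 (adjusted p = 0.897).

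LPIN1, a phosphatidate phosphatase of glycerolipid synthesis, had levels of 2.20 and 2.16 with mock and 0.94 and 0.97 with TSA in siCONT, and of 2.65 and 2.20 against 1.75 and 1.43 under the UHRF1 siRNAs. LPIN1 fell 2.33-fold with TSA in siCONT, and its arrays of UHRF1 depletion with TSA lay between those of siCONT with TSA and siCONT with mock. FADS1, the delta-5 desaturase (probe at chr11:61567126-61567185, hg19), had levels of −1.69 and −1.34 with mock and −0.29 and −0.26 with TSA in siCONT, and of −1.20 and −1.46 against 0.74 and 0.16 under the UHRF1 siRNAs. FADS1 rose 2.37-fold with TSA in siCONT (adjusted p = 0.00861), and its highest arrays were those of UHRF1 depletion with TSA. Its call in siCONT was lost without siCONT mock replicate 1, without either siCONT TSA array, with the siCONT arrays averaged (adjusted p = 0.183) and with normexp background correction, where the change of FADS1 was 0.63. FADS2, the delta-6 desaturase that lies beside FADS1 (probe at chr11:61634754-61634813, hg19), changed by −0.69 ± 0.19 in siCONT (adjusted p = 0.0304), under the 2-fold minimum. ME1, a source of NADPH, changed by 0.88 ± 0.38 (adjusted p = 0.106). AACS, GPAM and ACSL3 changed by −0.89 ± 0.12, −0.31 ± 0.27 and −0.30 ± 0.14, and ELOVL6 by 0.00 ± 0.19.

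The response to TSA in UHRF1-depleted cells was measured on arrays that share no sample with the siCONT comparison. In the sterol arm 13 genes fell, none rose and 5 were not called, and in the fatty acid arm 6 fell, 1 rose and 7 were not called, where 9.01% of all tested probes fell and 11.7% rose, or 20.7% together. The medians were −1.26 and −0.85, against −0.04 over all tested probes. Of the 20 members called with TSA in siCONT and the 20 called in UHRF1-depleted cells, 17 were called in both, 16 lower and FADS1 higher. The share of all tested probes called in both was not counted, so this overlap has no background beside it. TSA and slide row coincide in both comparisons. With the siCONT arrays averaged, 18 of the 32 members were called in UHRF1-depleted cells, where 17.6% of all tested probes were. SCD had the largest fall (−2.29 ± 0.21, adjusted p = 0.000716), followed by ACACA (−2.12 ± 0.22), SQLE (−1.85 ± 0.13) and DHCR7 (−1.74 ± 0.14), and FADS1 rose by 1.78 ± 0.23.

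**Figure D3:**
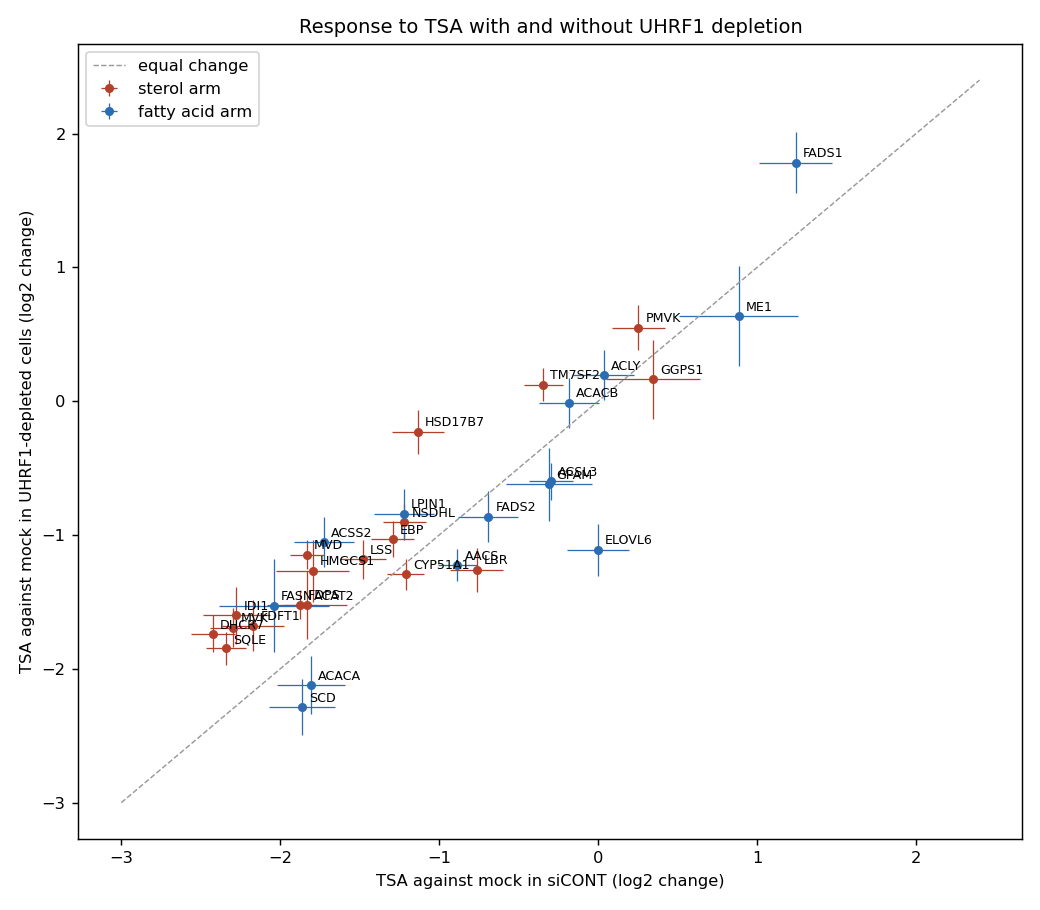
Change with TSA in siCONT (x axis, log2) against change with TSA in UHRF1-depleted cells (y axis, log2) for the 32 measured members, with the SE of each as bars and a dashed line for equal change. Sterol genes (red) lie mostly above the line, ELOVL6 lies at 0.00 and −1.11, and HSD17B7 at −1.13 and −0.23.

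LBR, AACS and ELOVL6 were called with TSA in UHRF1-depleted cells and not in siCONT. HSD17B7, NSDHL and LPIN1 were called in siCONT and not in UHRF1-depleted cells. LBR had levels of 5.57 and 5.56 with mock and 4.79 and 4.81 with TSA in siCONT, and of 5.20 and 4.84 against 3.91 and 3.62 under the UHRF1 siRNAs. LBR fell by 1.26 ± 0.17 in UHRF1-depleted cells (adjusted p = 0.0024). Its 4 groups did not overlap, but siUHRF1-2 under mock (4.84) and siCONT with TSA (4.81) were nearly equal. AACS, which activates acetoacetate for lipid synthesis, had levels of 2.66 and 2.72 with mock and 1.83 and 1.78 with TSA in siCONT, and of 3.26 and 3.19 against 2.09 and 1.90 under the UHRF1 siRNAs. AACS fell by 1.23 ± 0.12 in UHRF1-depleted cells (adjusted p = 0.000918), from the highest arrays of the 4 groups.

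ELOVL6, which elongates palmitate to stearate (probe at chr4:110971171-110971230, hg19), had levels of 1.42 and 1.33 with mock and 1.37 and 1.38 with TSA in siCONT, and of 1.44 and 0.92 against −0.05 and 0.18 under the UHRF1 siRNAs. Only the 2 arrays of UHRF1 depletion with TSA stood low. ELOVL6 fell by 1.11 ± 0.19 with TSA in UHRF1-depleted cells (adjusted p = 0.00634), and this call was lost without siUHRF1-1 under mock or under TSA. The call was also lost with scaling to the 75th percentile over detected probes (−0.95), with normexp background correction (−0.87) and by the methods' t-test.

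The difference between the TSA responses of siCONT and UHRF1-depleted cells, that is the interaction of UHRF1 depletion and TSA, was called by limma for 0 of the 32 measured members, where 4.90% of all tested probes were called, 2.83% higher and 2.07% lower. At an unadjusted p under 0.05 and a difference of at least 1 on the log2 scale, 1 member passed, which was ELOVL6, with −1.11 ± 0.27 (adjusted p = 0.0666). With the siCONT arrays averaged, 0 members passed the adjusted threshold and 0 the unadjusted one. Without siUHRF1-2 under mock ELOVL6 was called, and without siUHRF1-1 under mock HSD17B7 was called, at otherwise 0.90 ± 0.23 (adjusted p = 0.0722). The interaction was above 0 for 15 of the 18 sterol genes and for 6 of the 14 fatty acid genes, with medians of 0.41 and −0.21, against 0.06 over all tested probes. With median scaling these medians were 0.07 and −0.55, against −0.28. The share of all tested probes above 0 was not counted. All genes were measured on the same arrays, so their signs are not independent.

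Few changes were called with UHRF1 depletion alone, among the members as among all tested probes. Under mock, 1 of the 32 measured members was called, where 4.13% of all tested probes were called, 3.14% higher and 0.982% lower. With the siCONT arrays averaged 0 members and 0.0223% of all tested probes were called. This was HMGCS1, with −1.17 ± 0.23 (adjusted p = 0.0366), and its call was lost with the siCONT arrays averaged (adjusted p = 0.463), with the replicate block (adjusted p = 0.0541) and without any of the arrays except siUHRF1-1 under mock. The 2 siRNAs differed, at −0.81 with siUHRF1-1 and −1.52 with siUHRF1-2. The sterol arm had a median of −0.37 and the fatty acid arm of −0.01, against −0.10 over all tested probes, and the sign of the fatty acid median turned under quantile normalization (0.01) and under the 75th percentile over detected probes (0.07). HSD17B7 (−0.996 ± 0.16, adjusted p = 0.0253), SQLE (−0.87 ± 0.13, adjusted p = 0.0192), FDPS (−0.60 ± 0.11, adjusted p = 0.0305) and LSS (0.81 ± 0.14, adjusted p = 0.0306) had an adjusted p under 0.05 and were under the 2-fold minimum.

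Under TSA, UHRF1 depletion was called for 3 of the 32 measured members, LSS higher and LBR and ELOVL6 lower, where 8.27% of all tested probes were called, 5.38% higher and 2.89% lower. LSS changed by 1.10 ± 0.14 (adjusted p = 0.00831), at 1.08 with siUHRF1-1 and 1.13 with siUHRF1-2. Its second probe changed by 1.36 (adjusted p = 0.00792). LBR changed by −1.04 ± 0.17 (adjusted p = 0.0135), while TM7SF2, which shares its activity, changed by 0.82 ± 0.12 (adjusted p = 0.0117), under the 2-fold minimum. The levels of TM7SF2 were 1.78 and 1.81 in siCONT with TSA and 2.60 and 2.64 with the UHRF1 siRNAs under TSA. ELOVL6 changed by −1.30 ± 0.19 (adjusted p = 0.0112). All 3 calls were lost with the siCONT arrays averaged, where 0.696% of all tested probes were called, with the lowest adjusted p of a member at 0.204, and without either siCONT TSA array. Without siUHRF1-2 under TSA 5 members were called. With median scaling 4 members were called, all lower (LBR, ELOVL6, ME1 and GPAM), and LSS was at 0.75. LBR was under the 2-fold minimum with quantile normalization (−0.99) and with the 75th percentile over detected probes (−0.93). The same held without siUHRF1-2 under TSA (−0.90). With the mean of its probes ELOVL6 was not called by limma (−0.88, adjusted p = 0.101). The siRNAs stood apart for ME1, with changes of −1.67 with siUHRF1-1 and −0.50 with siUHRF1-2.

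**Figure D4:**
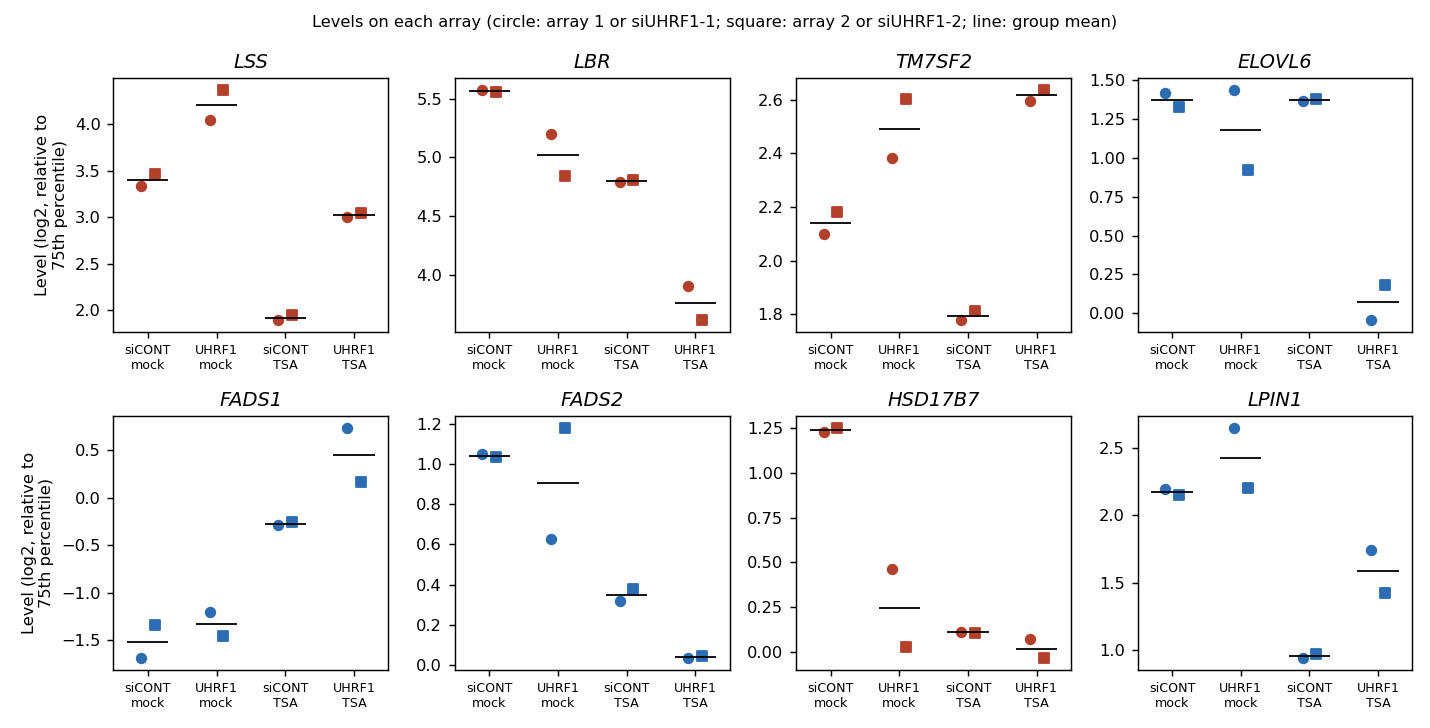
Levels (log2 above each array's 75th percentile, y axis) of 8 members in the 4 groups (x axis), with a circle for array 1 or siUHRF1-1, a square for array 2 or siUHRF1-2 and a line for the group mean. LSS stood higher with UHRF1 depletion under each agent, ELOVL6 was low in UHRF1 depletion with TSA alone, and with TSA the arrays of FADS1 lay higher and those of FADS2 lower than with mock. The y axes differ between panels.

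Cells with UHRF1 depletion plus TSA were compared with siCONT with mock, the comparison of the study's combined treatment. In the sterol arm 14 genes fell and none rose, and in the fatty acid arm 6 fell and 1 rose, where 11.1% of all tested probes fell and 14.5% rose, or 25.6% together. The medians were −1.67 and −0.85, against −0.14 over all tested probes. This comparison shares the siCONT mock arrays with that of TSA in siCONT, so the values stand side by side. SQLE changed by −2.72 ± 0.13 with both treatments and by −2.34 ± 0.13 with TSA alone. HMGCS1 changed by −2.43 ± 0.23 and −1.80 ± 0.23, and LBR by −1.80 ± 0.17 and −0.76 ± 0.17. LSS changed by −0.38 ± 0.14 and −1.48 ± 0.14, and LPIN1 by −0.59 ± 0.19 and −1.22 ± 0.19. FADS1 changed by 1.97 ± 0.23 and 1.24 ± 0.23. With the siCONT arrays averaged, 16 members were called, where 15.4% of all tested probes were. GPAM, which adds the first acyl chain to glycerol phosphate, had levels of 1.75 and 1.71 with mock and 1.37 and 1.47 with TSA in siCONT, and of 1.00 and 1.35 against 0.16 and 0.96 under the UHRF1 siRNAs. By its brightest probe GPAM was called in this comparison alone (−1.17 ± 0.27, adjusted p = 0.0142). The call was lost without siUHRF1-1 under TSA, without either siCONT mock array and after averaging the siCONT arrays. It was also lost under normexp background correction (−0.94), when only detected probes set the 75th percentile (−0.93), and by the methods' t-test. The second probe of GPAM, well above background on all arrays, changed by −0.83 and was not called. That probe changed by 0.03 with UHRF1 depletion under mock and by −0.02 under TSA. FADS2 lay at −0.9994 ± 0.19 (adjusted p = 0.00689), just under the 2-fold minimum.

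Over the 6 comparisons 24 of the 33 members were called at least once. The other 9 were PMVK, GGPS1 and TM7SF2 of the sterol arm and ACLY, ME1, ACACB, FADS2, ACSL3 and the dim ELOVL5 of the fatty acid arm. Of the members, 23 had 1 probe. The second probes of ACACA, LSS and AACS gave the same direction as the brightest with TSA, at −1.10, −1.02 and −0.49 in siCONT. In UHRF1-depleted cells the second probe of LSS changed by −0.37 and was not called, against −1.18 for the brightest, and with both treatments it changed by 0.34, against −0.38. With the mean of both probes LSS changed by −0.78 in UHRF1-depleted cells and was not called. The second probe of GPAM changed by −0.81 with TSA in siCONT, more than the brightest. HSD17B7 had 5 probes, all called lower with TSA in siCONT, 4 of them at −1.13 to −2.32. Its probe A_33_P3276376 was not well above background on any TSA array, and was at least 7.47-fold lower with TSA in siCONT (adjusted p = 0.000521). That probe (−1.34) and the probes A_33_P3276369 (−1.04) and A_33_P3225487 (−1.03) were called lower with UHRF1 depletion under mock, while the brightest, at −0.996, was just under the minimum.

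Among 11 other tested genes of sterol synthesis and its branches, out of 17 listed, 2 fell and 1 rose with TSA in siCONT, where 18.6% of all tested probes were called, and 5 fell with TSA in UHRF1-depleted cells, where 20.7% were. These counts were 0 and 5 with the siCONT arrays averaged. MSMO1, the methyl sterol oxidase between CYP51A1 and NSDHL, had levels of 1.14 and 1.13 with mock and −1.74 and −1.69 with TSA in siCONT, and of −0.15 and −0.70 against −3.05 and −1.99 under the UHRF1 siRNAs. MSMO1 fell by 2.84 ± 0.36 in siCONT and by 2.10 ± 0.36 in UHRF1-depleted cells. SC5DL, which acts just before DHCR7, changed by −0.95 ± 0.14 in siCONT and fell by 1.12 in UHRF1-depleted cells. SOAT1, which esterifies cholesterol for storage, rose by 1.21 ± 0.33 in siCONT. PDSS1 and PDSS2, which make the tail of coenzyme Q, fell by 1.53 and 1.19 in UHRF1-depleted cells.

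Among 31 other tested genes of fatty acid and glycerolipid synthesis, out of 34 listed, 3 rose and 6 fell with TSA in siCONT, where 18.6% of all tested probes were called, and 5 rose and 5 fell in UHRF1-depleted cells, where 20.7% were. Averaging the siCONT arrays left 2 calls in siCONT (FADS3 and ACSL6), 9 in UHRF1-depleted cells, and 0 with UHRF1 depletion under mock or under TSA. FADS3, a neighbour of FADS1 and FADS2, rose by 2.85 ± 0.12 in siCONT and 2.91 ± 0.12 in UHRF1-depleted cells. SLC25A1, which exports citrate from mitochondria, fell by 1.80 ± 0.19 and 1.02 ± 0.19. PNPLA3 fell by 3.04 ± 0.31 and 1.59 ± 0.31, and rose by 1.81 ± 0.31 with UHRF1 depletion under TSA. ACSL5, an acyl-CoA synthetase, fell by 1.70 ± 0.12 and 2.87 ± 0.12. OXSM and LPIN3 fell with TSA in siCONT, by 1.14 and 1.53, and AGPAT9 rose by 1.54. ACSL6 was not well above background on either siCONT TSA array and was at least 8.56-fold lower there than with mock. With UHRF1 depletion under mock only ACSL1 of these lists was called, higher by 1.12 ± 0.21, and under TSA MID1IP1 was lower by 1.10.

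Of 12 listed genes of SREBP control and sterol uptake, 6 fell with TSA in siCONT and none rose, where 8.22% of all tested probes fell, and 2 were called with the siCONT arrays averaged. Among the 6 were SREBF1 (−1.33 ± 0.12), SREBF2 (−1.52 ± 0.23) and INSIG1 (−5.59 ± 0.95), which encode SREBP-1, SREBP-2 and a protein that holds them back.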

How the data were processed

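RNA of DLD1 cells was hybridised to 8 Agilent SurePrint G3 Human GE v2 arrays. The deposited scanner files hold background-subtracted spot intensities that the authors extracted with Agilent Feature Extraction 10.7.3.1, not scaled between arrays, with probe positions on hg19. The submitters' processing notes give version 10.7, and the study's methods name GeneSpring GX without its normalization. Groups were taken from the labels.

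Non-control spots, without feature outliers, were averaged by probe (902 probes were spotted more than once). No spot was saturated, and the number of arrays limits the precision. The log2 intensity minus the 75th percentile of the array was fitted in R 4.3.3 by lmFit and eBayes of limma 3.58.1 (4 group means, 8 arrays, 4 residual degrees of freedom and a prior of 2.17, two-sided). Tests took probes that both arrays of a compared group measured well above background (24591 probes in all), with Benjamini-Hochberg adjustment over all tested probes. Calls needed an adjusted p under 0.05 and at least 2-fold. The arrays of a siCONT group differed by an SD of 0.16 over the 19900 probes above background on all arrays, against 0.49 and 0.42 between the UHRF1 siRNAs, so a fit with siCONT arrays averaged (2 residual degrees of freedom) stands beside the counts. A probe dim in a whole group has only a bound, which sets the bright group's mean against the higher of the dim probe's signal and the lowest signal well above background on each array.

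Some genes counted in the lists of other pathway genes are not reported here by name. A gene was represented by its brightest probe, and members called at least once were given with every array. The transcript accessions of all 33 brightest probes matched the same gene in RefSeq. The members and lists were chosen with earlier results of these data known. The script was tested on simulated data. Alternatives were other scalings, background corrections, filters, tests, a replicate block and leaving out each array. In the UHRF1 groups the replicate number is that of the siRNA, so it pairs the mock and TSA arrays (correlation of deviations 0.34). A fit with the siRNA as a block there (3 residual degrees of freedom) was added after seeing the data. Numbers of siCONT arrays were not taken as pairs (correlations −0.06 to 0.07). The authors' series matrix holds the same intensity as the scanner files, with a median ratio of 1.00.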

Additional observations from a re-analysis of the deposited data

Results flagged for a closer look

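In 5 cases the difference between the TSA responses of siCONT and UHRF1-depleted cells passed the adjusted threshold of limma on a probe of a member or of a listed neighbour. Over all tested probes 4.90% were called. By the brightest probe, 0 of 32 members and 1 of 11 other sterol genes were called. Of 31 other fatty acid genes 1 was called higher and 1 lower, and 1 of 12 regulators was called. These calls are therefore not read as a trait of the lists. For HSD17B7 the called probe was A_33_P3276376, with an interaction of 1.84 (adjusted p = 0.0323). Its levels were −0.74 and −0.90 in siCONT with mock, −2.12 and −2.21 with the UHRF1 siRNAs under mock, −3.76 and −4.03 in siCONT with TSA, and −3.10 and −3.69 with the siRNAs under TSA. It was not well above background on any of the 4 TSA arrays, so the fitted difference is not a bound, and the other 4 probes gave 0.76 to 1.32 with no call.

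The interaction was 1.66 ± 0.25 (adjusted p = 0.0263) for STARD4, a sterol transfer protein whose levels in siCONT were 2.28 and 2.24 under mock and −0.76 and −0.81 under TSA, against 1.70 and 1.21 with the UHRF1 siRNAs under mock and 0.05 and 0.10 under TSA. It was −1.21 ± 0.17 (adjusted p = 0.024) for PDSS1, with TSA responses of −0.32 in siCONT and −1.53 in UHRF1-depleted cells. It was −1.17 ± 0.17 (adjusted p = 0.0249) for ACSL5, with TSA responses of −1.70 and −2.87. It was 2.296 ± 0.45 (adjusted p = 0.0442) for ELOVL3, which was above background on neither siUHRF1 mock array and on 1 of 2 siCONT TSA arrays, so this fitted difference is not a bound either. None of these calls was made with the siCONT arrays averaged, where no probe of the array passed.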

How the results depend on the processing

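For single members, 2498 values kept their side of the threshold over the alternatives that kept all arrays, 91 lost a call and 35 gained one. Without 1 array 1493 kept it, 29 lost a call and 14 gained one. No called change reversed its direction. Changes of sign among values that were not called were not counted. Members called with UHRF1 depletion under mock numbered 1, against 0 with the siCONT arrays averaged, with the replicate block, with median scaling, without a filter on dim probes and by the methods' t-test (unadjusted or Benjamini-Hochberg), 2 with the mean of all probes of a gene, 5 without the fold minimum, and 0 to 2 without 1 array. With TSA in siCONT they numbered 20, against 3 with the siCONT arrays averaged and 19 to 20 without 1 array. With TSA in UHRF1-depleted cells they numbered 20, against 0 by the methods' t-test after Benjamini-Hochberg and 18 to 20 without 1 array, and with both treatments 21, against 14 by the t-test after Benjamini-Hochberg, 28 without the fold minimum and 20 to 22 without 1 array. With UHRF1 depletion under TSA they numbered 3, against 0 with the siCONT arrays averaged and by the t-test after Benjamini-Hochberg, 5 without the fold minimum, and 0 to 5 without 1 array. For the interaction they numbered 0, against 1 when probes had to be above background on all arrays (ELOVL6), 1 with the mean of all probes of a gene (HSD17B7), and 0 to 1 without 1 array. The causes were not tested. Median scaling moved the median of all probes by −0.40 with both treatments, −0.35 with UHRF1 depletion under TSA and −0.39 with TSA in UHRF1-depleted cells, and turned the median of the sterol arm with UHRF1 depletion under TSA from 0.04 to −0.31. The replicate block, in which same-numbered arrays are paired, took away the call of HMGCS1 under mock and no other. With the siRNA as a block in the UHRF1 groups, an alternative chosen after seeing the data, ME1 gained a call with UHRF1 depletion under TSA (−1.09, 4 members called), and no other call changed. Slide and scan could not be fitted as a block, since there was 1 of each, and the t-test was not run for the interaction. Only 2 arrays a group, and 1 sample for siCONT, limit what could be detected.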
